A study of Talpa occidentalis with 6 samples.

Results

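Chromatin states of the mouse fetal ovary were compared with those of the mouse fetal testis across the autosomes, in bins of 200 bp. The states came from ATAC-seq, in which a transposase cuts and tags DNA that is not wrapped up in nucleosomes or bound protein, so that accessible DNA yields more sequencing reads. Of the 5 genome segmentations deposited in the series, 2 are of mouse gonads, 1 of the ovary and 1 of the testis, and the other 3 are of gonads of the Iberian mole. The mouse segmentations held 13274472 bins, of which 12361688 lay on the 19 autosomes (2.47 Gb) and entered the comparison. All of those bins carried a state in both gonads.

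Per the labels' protocols, the mouse gonads came from embryos at stage E13.5 (days after conception) and were disrupted into single cells and strained, and 50000 cells entered each tagmentation. The gonad names were taken from the header lines of the deposited segmentations. The sample labels used here describe 6 mole samples (wild type, day 7 after birth) and no mouse sample, so the strain and genotype of the mice and the number of animals and libraries behind each segmentation are not given in the sources used here. Each gonad is 1 pooled value. No spread between animals and no test between the gonads could be computed, and the sequencing depth is unknown. Whole gonads are mixtures, so a difference in accessibility and a difference in cell composition cannot be told apart.

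At this stage of mouse development the gonads have begun to diverge. In the testis, Sertoli cells have enclosed the germ cells in cords and fetal Leydig cells produce androgens, while male germ cells leave the cell cycle. In the ovary, supporting cells take the pregranulosa path and germ cells begin to enter meiosis. A chromatin segmentation assigns each bin to 1 of a small number of states from its read counts. EpiCSeg, named in the header lines, does so with a hidden Markov model, and the state numbers are categories without a scale. The comparison takes a state number to mean the same in both gonads. No source used here says whether both were segmented with 1 shared model. No mouse gene table was used here, so regions are given by position and no marker gene of a gonadal cell type could be examined.

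The build was read from the chromosome ends. The last segment of each of 21 chromosomes (19 autosomes, X and Y) ended within the final 200 bp of the mm9 length in both gonads, and 0 of 21 chromosomes matched mm10. All positions below are on mm9 and count from 1. The segmentations had the same 4 gaps, which together cover 3.0 kb.

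The direction of the state numbers was settled from DNA that can give no reads. The first 3 Mb of each mouse autosome are unsequenced in this build, and 99.9996% of their bins were in state 5 in the ovary and in the testis. The Y chromosome, which female cells lack, was in state 5 over 99.8% of its length in the ovary, and the rest was state 4. In the testis, 87.5% of Y was in state 5, 10.7% in state 4, 1.25% in state 3, 0.0641% in state 2 and 0.493% in state 1. Bins of Y outside state 5 came to 28.0 kb in the ovary and 1.98 Mb in the testis. State 5 is therefore the end of the series without reads, and the Y chromosome matched both gonad names. State 1, at the other end and coloured red in the files, is called open below, and states 4 and 5 are called closed.

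On the autosomes the testis held more open DNA than the ovary. State 1 covered 9.69 Mb (0.392%) in the ovary and 12.6 Mb (0.51%) in the testis, a ratio of 1.30. The ovary divided this length into 17575 segments with a mean of 551.3 bp and a median of 400 bp. The testis had 16699 segments, 0.95 times as many, with a mean of 755.3 bp and a median of 600 bp. The order of the numbers rested on segments of 200 bp, a single bin. Among segments of at least 400 bp the ovary had 11024, with a mean of 760.1 bp, and the testis 14849, with a mean of 824.5 bp, so that the testis had 1.35 times as many and the ratio of mean lengths was 1.08 in place of 1.37. The open share was higher in the testis on 19 of 19 autosomes. With no replicates, whether these differences exceed the spread between animals could not be tested, and depth and the fitting of the states cannot be told apart from the gonad.

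State 2, the next step of the series, was also more extensive in the testis. It covered 358.5 Mb (14.5%) in the ovary and 418.6 Mb (16.9%) in the testis, and was higher in the testis on 19 of 19 autosomes. Its segments had a mean length of 2896 bp in the ovary and 3567 bp in the testis. State 3 made up most of the autosomes, with 73.1% in the ovary and 70.9% in the testis, in segments whose median length was 7000 bp in each. State 4 covered 5.23% and 5.05%, and state 5 covered 6.79% and 6.58%. Going from the ovary to the testis, states 1 and 2 thus gained 2.92 Mb and 60.1 Mb, and state 3 fell by 53.4 Mb, state 4 by 4.49 Mb and state 5 by 5.1 Mb. State 3 was lower in the testis on each of the 19 autosomes, and state 4 was higher there on 4 of them.

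**Figure D1:**
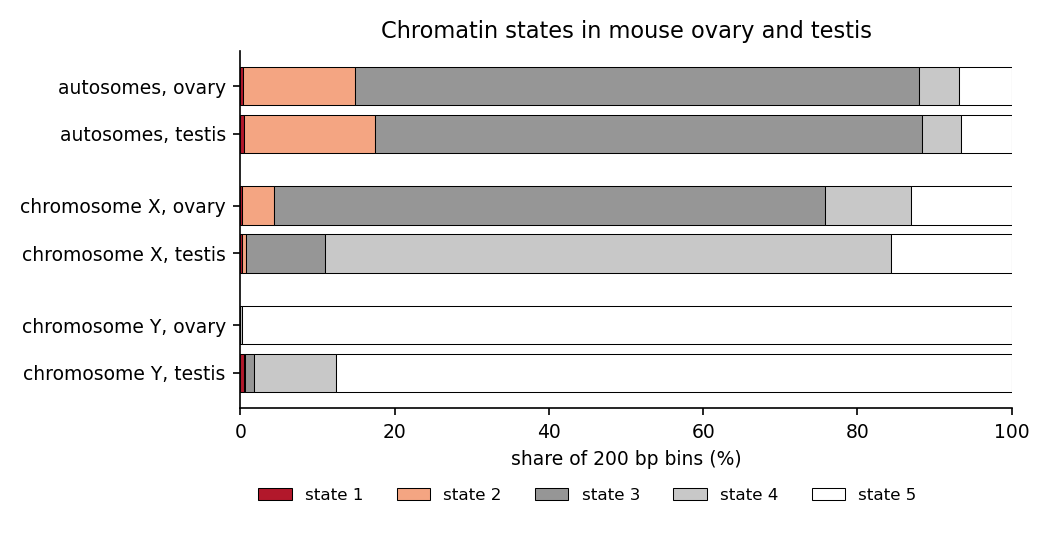
Share of 200 bp bins (x axis, percent) in each chromatin state, in the ovary and the testis, for the autosomes and the X and Y chromosomes; each bar is 1 pooled segmentation and adds up to the whole. On the autosomes both gonads were mainly in state 3 (73.1% and 70.9%), whereas most of X was in state 3 in the ovary (71.5%) and in state 4 in the testis (73.4%).

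The states formed an ordered ladder in both gonads. Of 401969 state boundaries on the ovary autosomes, 97.9% joined neighbouring state numbers (Wilson 95% interval 97.8% to 97.9%, counting error only). In the testis 98.1% of 375016 boundaries did (98.0% to 98.1%). Boundaries between states 2 and 3 were the most frequent, with 52.9% in the ovary and 53.7% in the testis. Open segments were bordered by state 2 at 99.2% of their edges in the ovary and at 99.6% in the testis. Steps that skipped a state lay mostly between states 3 and 5, with 8026 boundaries of 8578 skipping ones in the ovary and 6839 of 7199 in the testis.

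A small set of open segments broke this order by lying directly beside closed chromatin. There were 250 such segments in the ovary (1.42%) and 107 in the testis (0.641%). Of the 250 in the ovary, 84 overlapped an open segment of the testis, or 33.6%, against 64.6% of all ovary open segments. Of the 107 in the testis, 78 overlapped an open segment of the ovary, or 72.9%, against 67.0% of all testis open segments.

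Bin by bin, 81.0% of the autosomal bins were in the same state in both gonads. Cohen's kappa, which discounts the 55.0% expected from the state shares alone, was 0.578. Bins with the lower state number in the testis numbered 1373078 (11.1% of autosomal bins), against 971449 with the lower number in the ovary (7.86%), a ratio of 1.41. Of the bins that differed, 99.6% differed by 1 step. A difference of 2 steps was found in 8858 bins, of 3 steps in 84 and of 4 steps in 0.

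The transition table was not symmetric, and at each step of the ladder more bins had the lower number in the testis. Of the bins open in the ovary, 76.2% were open in the testis, 19.9% were in state 2, 3.88% in state 3, and 14 bins in state 4. Of the bins open in the testis, 58.5% were open in the ovary, 39.2% were in state 2 and 2.22% in state 3. Bins that were in state 2 in the ovary and open in the testis numbered 24702, while 9633 made the opposite step, a ratio of 2.56 and a net 15069 bins. Most of the net shift in bins lay between states 2 and 3, with 314678 bins and a ratio of 1.44. State 3 in the ovary and state 2 in the testis covered 205 Mb, and the reverse covered 142 Mb. Between states 3 and 4 the ratio was 1.23 (net 46164 bins), and between states 4 and 5 it was 1.52 (net 24386 bins). State 2 was kept by 59.0% of its ovary bins and state 3 by 86.4%. State 4 was kept by 54.3%, with 38.3% in state 3 in the testis, and state 5 by 91.3%.

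**Figure D2:**
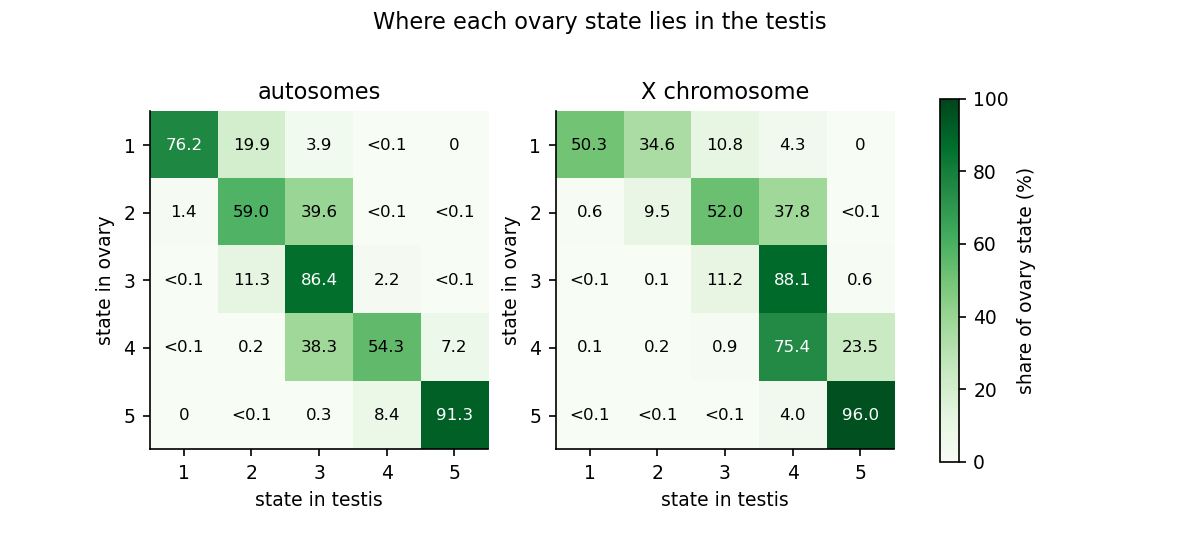
Share of the bins of each ovary state (rows, adding up to the whole) that lay in each testis state (columns), for the autosomes on the left and the X chromosome on the right; values are in percent and the colour scale runs from 0 to 100. On the autosomes the diagonal holds most of each row (from 54.3% to 91.3%), whereas on X 88.1% of ovary state 3 lay 1 step lower, in testis state 4.

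The open DNA of the gonads overlapped by about 0.5 on the Jaccard scale, the length open in both divided by the length open in either. Of 14.9 Mb open in either gonad, 7.38 Mb were open in both, which gave an index of 0.495. DNA open in the ovary and not in the testis came to 2.31 Mb, and the reverse to 5.23 Mb. Since the open lengths differ, the index could not have exceeded 0.768, the value if the ovary's open bins all lay within those of the testis. With each autosome left out in turn, the index ranged from 0.491 to 0.497.

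By segments, 11357 of the 17575 ovary open segments, or 64.6% (63.9% to 65.3%), had an open partner in the testis, with at least 1 bp in common. In the other direction 11188 of 16699, or 67.0% (66.3% to 67.7%), had an open partner in the ovary. The order turned when single-bin segments were left out, with 88.8% in the ovary and 72.2% in the testis. Most of the others were 1 step down in the other gonad. Of the 6218 ovary segments without an open partner, 70.3% reached state 2 in the testis and 29.4% reached state 3. Of the 5511 testis segments without a partner, 88.4% reached state 2 in the ovary and 11.3% reached state 3.

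The share of open segments with an open partner rose with segment length up to 1000 bp in both gonads. Since 1 bp of overlap was enough, a longer segment has more bins in which to meet a partner. Segments of 200 bp, a single bin, made up 37.3% of the ovary's open segments (6551) and 11.1% of those of the testis (1850). An open partner was found for 23.9% of these in the ovary (22.9% to 24.9%) and for 25.2% in the testis (23.3% to 27.2%). At 400 bp the share was 75.5% for ovary segments (74.1% to 76.9%) and 40.5% for testis segments (39.0% to 42.1%), and at 600 bp it was 93.0% and 67.4%. From 1200 to 1800 bp it was 96.9% for the ovary and 95.7% for the testis. Between 400 and 1000 bp, a testis segment of these segmentations had an open partner less often than an ovary segment of the same length. The intervals cover counting error only, and this difference between the gonads was not tested. Single-bin segments added up to 1.31 Mb of open DNA in the ovary and 0.37 Mb in the testis.

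**Figure D3:**
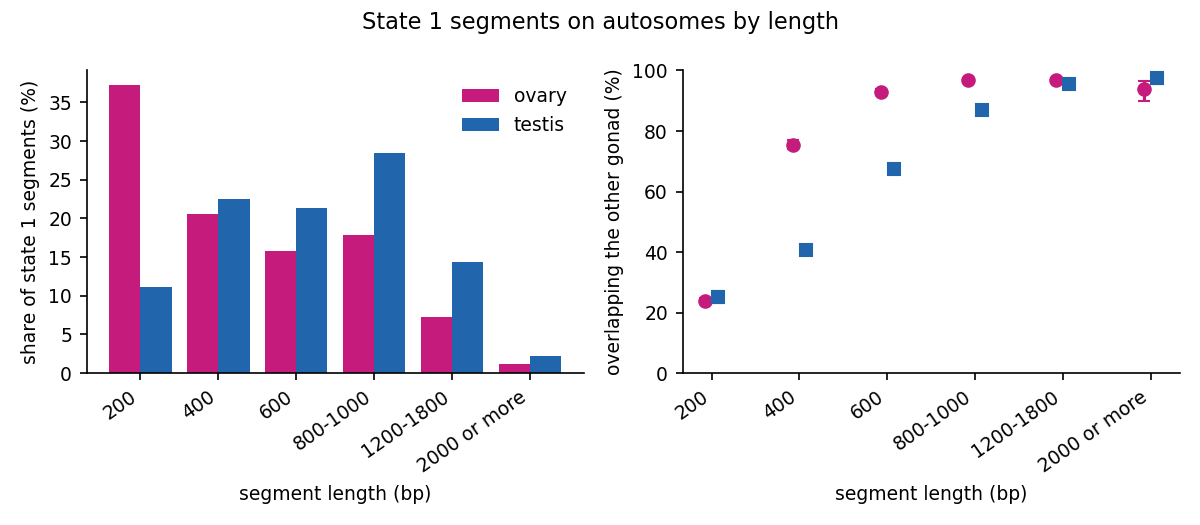
State 1 segments on the autosomes by length in bp (x axis): on the left the share of each gonad's segments in each length class, on the right the share that overlaps state 1 in the other gonad, with Wilson 95% intervals as bars (counting error only). Single-bin segments are the largest class in the ovary (37.3%) and a small one in the testis (11.1%), and the overlap climbs from 23.9% and 25.2% at 200 bp to at least 93.9% at 1200 bp and above.

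Where an ovary and a testis open segment overlapped one to one, the testis segment was usually the longer. There were 10843 such pairs, with a mean length of 690.2 bp in the ovary and 866 bp in the testis. The testis segment was longer in 59.1% of pairs, equal in 28.0% and shorter in 12.9%, and the median difference was 200 bp, or 1 bin. The ovary segment did not reach beyond the testis segment at either end in 80.1% of pairs. These include the 22.7% of pairs in which the ends were identical.

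Open segments lay inside broader state 2 chromatin, also where the other gonad was not open. Over all autosomal bins, states 1 and 2 together covered 14.9% in the ovary and 17.4% in the testis. At the centre of ovary segments without an open partner, 70.3% of testis bins were in state 2. At 2 kb from the centre 53.4% of testis bins were in states 1 or 2, and at 10 kb 39.3%. At the centre of testis segments without a partner, 87.9% of ovary bins were in state 2, falling to 48.6% at 2 kb and 30.2% at 10 kb. For shared segments centred in the ovary the values at 2 kb were 66.1% in the ovary and 73.6% in the testis, and at 10 kb 34.5% and 41.3%. These values at 2 kb and 10 kb are those toward higher positions. The excess over the autosomal share thus extended to 10 kb for shared and for unshared segments. Toward lower positions, shared segments centred in the ovary had 35.1% in the ovary and 41.7% in the testis at 10 kb.

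**Figure D4:**
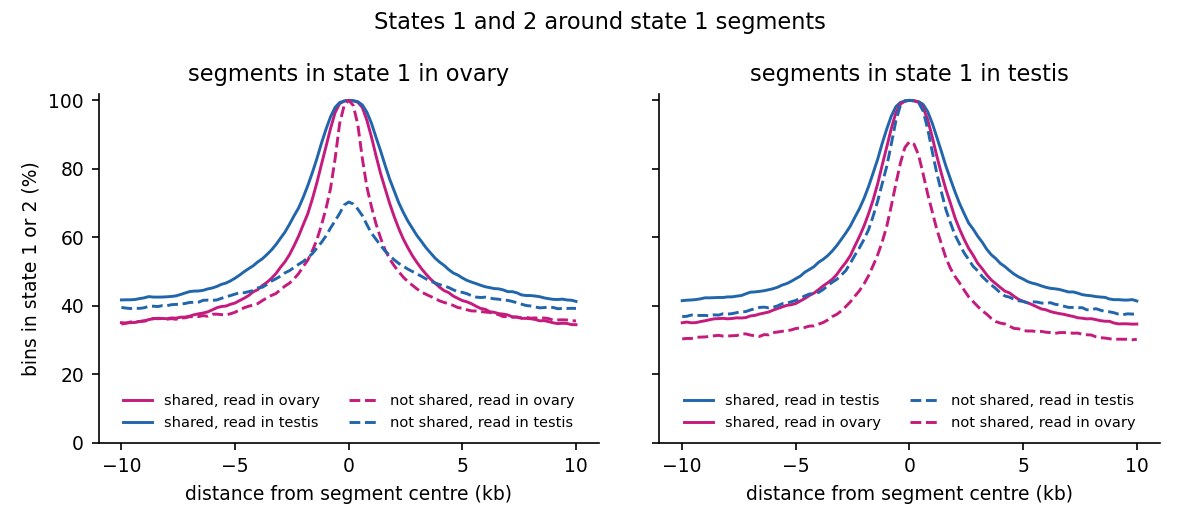
Share of bins in state 1 or 2 (y axis, percent) by distance from the centre of an open segment (x axis, kb), for segments open in the ovary on the left and in the testis on the right. Solid lines are segments with an open partner in the other gonad, dashed lines those without, and colour gives the gonad in which the state was read (ovary pink, testis blue); the dashed lines of the other gonad peak at the centre, at 70.3% on the left and 87.9% on the right.

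Unshared segments were more often near an open segment of the other gonad in the ovary than in the testis. The median distance from an ovary segment without a partner to the nearest open segment of the testis was 23.8 kb, and 10.9% lay within 1 kb. For testis segments without a partner the median was 35 kb to the nearest ovary segment, and 5.33% lay within 1 kb. Consecutive open segments of 1 gonad were spaced by a median of 49.2 kb in the ovary and 55.2 kb in the testis. Of the unshared ovary segments, 20.6% had another unshared ovary segment within 10 kb, and 12.3% of the unshared testis segments had another of their kind. Shared segments had a shared neighbour within 10 kb in 23.2% of cases in the ovary and 20.8% in the testis.

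States 1 and 2 together formed 106516 domains in the ovary and 100788 in the testis, with median lengths of 2200 bp and 2600 bp. Domains of at least 10 kb numbered 6116 in the ovary and 9034 in the testis, and held 27.2% and 37.8% of the domain length. Only a minority contained open DNA, namely 14328 ovary and 14030 testis domains. Of the ovary domains with open DNA, 90.7% overlapped a testis domain and 71.1% overlapped open DNA there. Of the testis domains with open DNA, 96.7% overlapped an ovary domain and 70.8% overlapped open DNA. Among all domains, 58.2% of those of the ovary and 55.6% of those of the testis overlapped a domain of the other gonad. Domain length was not held equal between these sets.

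DNA open in one gonad and closed in the other was rare. There were 14 such segments among the 17575 of the ovary, or 0.0797% (0.0475% to 0.134%), and 13 among the 16699 of the testis, or 0.0778% (0.0455% to 0.133%). Each lay at state 4 in the other gonad at the lowest, and 0 lay wholly in state 5. All 14 of the ovary were 200 bp long, and 11 of them bordered closed chromatin in the ovary itself. In the testis, 8 of the 13 were 200 bp long and 5 bordered closed chromatin.

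Among the ovary segments, those in the longest closed stretches of the testis lay at chr7:10541801-10542000, inside 794 kb of closed testis chromatin, and at chr6:47603001-47603200, inside 118.4 kb. The next were chr7:16037601-16037800 (80.4 kb), chr14:7207801-7208000 (36.2 kb) and chr14:8084001-8084200 (15.2 kb). In the testis, 5 of the 13 segments were longer than 1 bin. Of these, 2 are on chromosome 18 and are not named here, the longer of 2000 bp, and the other 3 were 400 bp long. They lay at chr15:19426401-19426800 in 9.6 kb of closed ovary chromatin, at chr9:123997001-123997400 in 5.4 kb and at chr17:36621601-36622000 in 1.2 kb. Of these, the segment on chromosome 9 was bordered by state 2 on both sides in the testis. Testis segments of 200 bp followed at chr4:49414401-49414600 (8.4 kb) and chr15:97457801-97458000 (6 kb). No gene, exon or intron could be assigned to these regions.

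Larger numbers were found 1 level up, in segments open in one gonad and at state 3 in the other. They numbered 1830 for the ovary (10.4% of its open segments) and 625 for the testis (3.74%). Single-bin segments made up 1786 of the 1830 and 231 of the 625. At 400 bp there were 43 in the ovary and 285 in the testis, so the order rested on single-bin segments. The following regions were chosen after their values were seen. The longest testis segments of this kind were chr3:25446601-25451600 (5000 bp), chr14:45289401-45293800 (4400 bp) and chr2:27354401-27356600 (2200 bp). The longest of the ovary was chr5:36747801-36748400 (600 bp). The segment on chromosome 3 is part of a stretch of 39.6 kb, chr3:25416401-25456000. In the testis 88.4% of this stretch was open, in 8 segments of which the longest was 16.8 kb, and the other 11.6% was state 2. In the ovary 1.52% was open, 21.2% was state 2 and 77.3% state 3. In the 100 kb on each side both gonads were at state 3 over most of the length (89.4% in the ovary and 88.9% in the testis) and 0% was open in either. The stretch made chr3:25000001-26000000 the window of 1 Mb with the largest open excess in the testis, at 0.14% in the ovary and 3.62% in the testis. This window is among those open over at least 2% that are described below. Copy number, read mapping and accessibility per copy cannot be told apart in this stretch either.

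The longest DNA open in both gonads lay on chromosome 11, at chr11:3052001-3080400 (28.4 kb), chr11:3025401-3049000 (23.6 kb) and chr11:3080601-3100000 (19.4 kb). They lie near the start of the sequenced part of that chromosome. Open segments of at least 5 kb numbered 33 in the ovary, in 15 windows of 1 Mb, and 26 in the testis, in 11 windows. All 33 of the ovary overlapped open DNA of the testis, and 24 of the 26 did in the other direction.

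More generally, part of the open DNA was concentrated in few windows. The states rest on read counts, so copy number, read mapping and accessibility per copy cannot be told apart there. In 58 of 2465 autosomal windows (2.35%), state 1 covered at least 2% in either gonad, and these windows held 18.8% of the open DNA of the ovary and 14.6% of that of the testis. The densest was chr8:19000001-20000000, with 132.8 kb open in the ovary and 119.4 kb in the testis. It was followed by chr1:85000001-86000000 (111.4 kb and 85.2 kb) and chr11:3000001-4000000 (89.8 kb and 90.8 kb). Of the 58 windows, 18 were more open in the ovary, against the direction of the autosomes as a whole, and 40 in the testis. In chr4:146000001-147000000 state 1 covered 10.2% in the ovary and 6.28% in the testis, in chr4:145000001-146000000 7.56% and 3.9%, and in chr13:12000001-13000000 5.6% and 2.08%. Without the 58 windows, the open share was 0.326% in the ovary and 0.447% in the testis, a ratio of 1.37 in place of 1.30.

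Across windows of 1 Mb, states 1 to 3 together differed less between the gonads than states 1 and 2 together. The share of states 1 to 3 is a net value, in which opposite exchanges between states 3 and 4 cancel. Its median was already 92.9% in the ovary and 93.3% in the testis, which left little room to rise. It therefore does not show how far the boundary between states 3 and 4 moved. The share of states 1 to 3 differed by at least 20 percentage points in 0 of 2465 windows (0%), and by at least 10 points in 0. The windows with the largest differences were chr8:39000001-40000000, with 79.6% in the ovary and 85.3% in the testis, and chr17:39000001-40000000, with 77.4% and 68.9%. In chr16:71000001-72000000 it was 83.8% and 88.5%, in chr4:143000001-144000000 54.5% and 59.0%, in chr7:49000001-50000000 82.4% and 74.4%, and in chr7:34000001-35000000 76.9% and 69.1%. The median window differed by 0.28 points, with the testis higher.

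States 1 and 2 together were higher in the testis in 1765 windows and in the ovary in 622. In 127 windows (5.15%) the testis was higher by at least 10 percentage points, and in 0 was the ovary. These 127 windows lay on 18 autosomes, with none on chromosome 13, and 23 of them lay on chromosome 11, or 18.9% of its windows. Their median share of states 1 and 2 was 30.4% in the ovary and 42.5% in the testis, against 11.6% and 13.7% over all windows. The windows were chosen by a difference in points in this same share, and that difference grew with the share. Over 5 groups of windows split by their mean share, its median rose from 0 points in the lowest to 5.75 in the highest. The high ovary level of the 127 windows therefore cannot be told apart from the margin that selected them. The largest differences were in chr4:149000001-150000000, with 31.1% in the ovary and 55.0% in the testis, chr4:141000001-142000000 with 40.1% and 58.4%, and chr10:61000001-62000000 with 34.8% and 53.1%. In the opposite direction the largest were chr5:38000001-39000000 with 33.8% and 24.9%, chr9:55000001-56000000 with 22.4% and 14.2%, and chr9:14000001-15000000 with 46.2% and 38.4%. In those 3 windows state 1 itself was higher in the testis, with 0.8% against 0.5% in the first.

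The testis excess of states 1 and 2 grew with their level. Windows were split into 5 groups of nearly equal size by the mean share over both gonads. In the lowest group the median difference was 0 points and 41.8% of windows were higher in the testis. In the highest group the testis was higher by a median of 5.75 points, and in 88.1% of windows. As a ratio it did not grow beyond the second group: the median share of the testis divided by that of the ovary was 0.954 in the lowest group and between 1.18 and 1.19 in the other 4. The mean open share also differed by more points from group to group, from 0.0143 in the lowest to 0.267 in the highest, while its testis to ovary ratio was 1.39 in the lowest, 1.48 in the second and 1.29 in the highest. The highest group held 47.9% of the open DNA of the ovary and 47.3% of that of the testis.

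Over the chromosomes, the gonads ranked alike. Chromosome 11, with 0.539% open in the ovary and 0.761% in the testis, was the highest in both, followed by chromosome 17 with 0.486% and 0.64%. The lowest was chromosome 18 in the ovary (0.279%) and chromosome 14 in the testis (0.391%). The median autosome had 0.382% in the ovary and 0.491% in the testis, with standard deviations over the 19 autosomes of 0.0764 and 0.0973 percentage points. As a description over 19 chromosomes that share their library and depth, Spearman's rho between the gonads was 0.958. In number of open segments, the ovary was higher on 16 autosomes and the testis on 2, and chromosome 9 had 936 in each. The exceptions were chromosome 11, with 1117 in the ovary and 1199 in the testis, and chromosome 16, with 575 and 577. Among segments of at least 400 bp the testis had more on 19 of 19 autosomes.

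The ratio of ovary to testis open share ranged from 0.703 on chromosome 18 to 0.843 on chromosome 1. Part of this range came from the dense windows. Without them it ran from 0.666 on chromosome 11 to 0.778 on chromosome 19, and chromosome 1 fell to 0.742 and chromosome 4 from 0.838 to 0.698. The Jaccard index ranged from 0.449 on chromosome 14 to 0.541 on chromosome 1, with a median of 0.49. The share of bins in the same state ranged from 78.8% on chromosome 11 to 82.3% on chromosome 3.

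**Figure D5:**
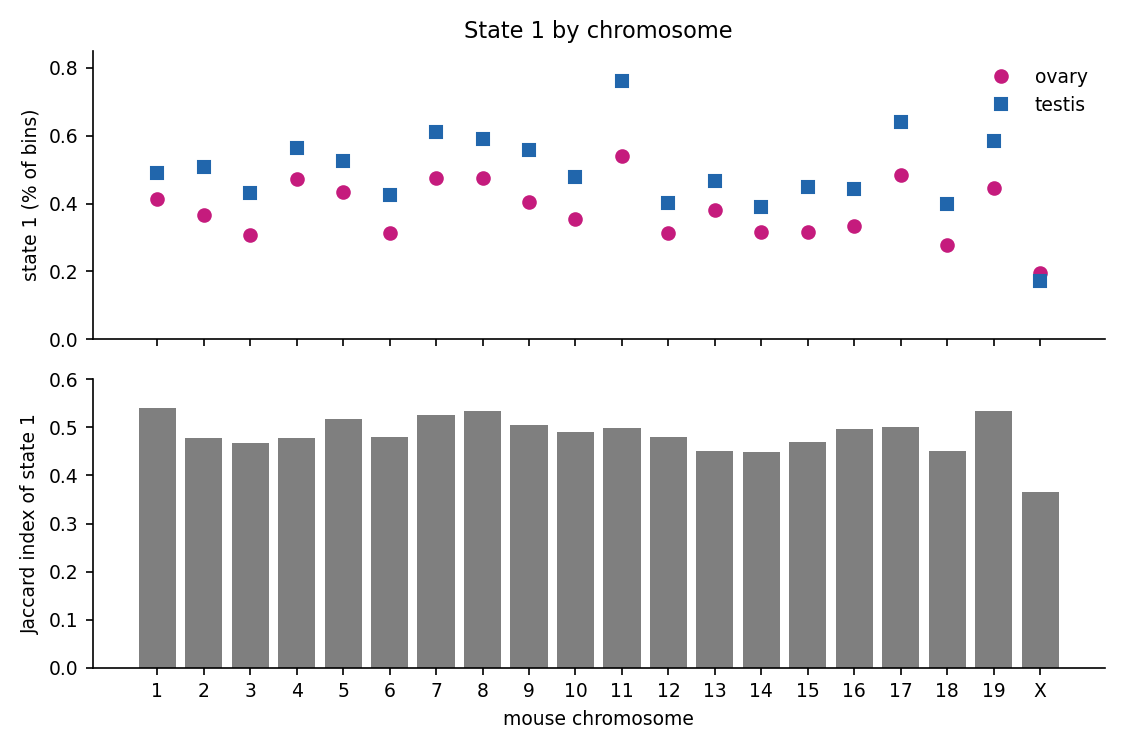
Open share of each chromosome (top, state 1 in percent of bins, ovary as circles and testis as squares) and Jaccard index of state 1 between the gonads (bottom), each point or bar being 1 chromosome of 1 pooled segmentation per gonad. The testis lies above the ovary on all 19 autosomes and below it on X, where the index is also the lowest, at 0.365.

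Along the autosomes, open DNA was most frequent toward the ends. The DNA after the first 3 Mb of each was divided into 10 equal pieces, numbered from the start. The open share of the ovary was highest in piece 10 (0.513%) and piece 1 (0.502%) and lowest in piece 3 (0.306%). In the testis it was highest in piece 10 (0.636%) and piece 2 (0.61%) and lowest in piece 3 (0.415%). The ovary to testis ratio ranged from 0.685 in piece 8 to 0.903 in piece 1. The dense windows were not left out of these values. Of those named above, chr11:3000001-4000000 and chr13:12000001-13000000 lie in piece 1, and chr3:25000001-26000000 and chr8:19000001-20000000 in piece 2. Those on chromosome 4, chr4:145000001-146000000 and chr4:146000001-147000000, lie in piece 10, and chr1:85000001-86000000 lies in piece 5. How much of the highest values in pieces 1, 2 and 10 comes from dense windows was not tested.

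The X chromosome, which was set aside from the comparison, differed by a whole step. Female cells carry a pair of X chromosomes, of which one is largely silenced in somatic cells, and male cells carry a single copy. State 3 covered 71.5% of X in the ovary and 10.3% in the testis, and state 4 covered 11.1% and 73.4%. Of the bins in state 3 in the ovary, 88.1% were in state 4 in the testis, and 52.0% of those in state 2 were in state 3. On the autosomes the corresponding shares were 2.23% and 39.6%. A lower number in the ovary was found in 69.9% of X bins and the reverse in 0.77%. Copy number and accessibility per copy cannot be told apart from these states.

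Open DNA on X was kept more often than states 2 and 3, and less often than states 4 and 5. Of the ovary bins on X, 50.3% of state 1 were in the same state in the testis, against 9.49% of state 2, 11.2% of state 3, 75.4% of state 4 and 96.0% of state 5. State 1 covered 0.195% of X in the ovary and 0.172% in the testis, so that the ovary was higher, unlike on each of the 19 autosomes. Of the 604 ovary open segments on X, 49.2% had an open partner in the testis (45.2% to 53.2%), and of the 427 in the testis 67.4% had one in the ovary (62.9% to 71.7%). The Jaccard index of X was 0.365, below the lowest autosome. In the 166 windows of 1 Mb, states 1 to 3 covered a median of 85.1% in the ovary and 8.03% in the testis, and the testis was higher in 1 window. The testis value was highest in chrX:7000001-8000000, with 45.4% against 96.0% in the ovary. The longest open segments of X in the testis, of 10.6 kb and 6.6 kb, lay at chrX:166407801-166418400 and chrX:166419201-166425800, within 232 kb of the end of the chromosome, near which the pseudoautosomal region shared with Y lies. On Y the testis had 14 open segments with a total of 78.4 kb, between chrY:145401 and 2902600, and the ovary had 0.

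The header lines of both files open a genome browser at chr8:91539873-92107481, a region of 567.6 kb. It held 1 open segment in each gonad, chr8:91677201-91677400 in the ovary and chr8:91677201-91677800 in the testis, which overlap. State 2 covered 6.41% of the region in the ovary and 3.8% in the testis, against the direction of the autosomes.

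The mouse states cannot be set number by number against those of the mole. In the 3 mole segmentations state 4 was the most extensive, with 58.5% to 59.7% of bins, where in the mouse state 3 was, with 73.1% and 70.9%. The mole tissues with the nearest names, the ovarian portion of the ovotestis and the testis at day 7 after birth, had a Jaccard index of 0.494, next to 0.495 in the mouse. Between these mole tissues 0.753% of the open segments of the ovarian portion were closed in the testis and 2.43% of those of the testis were closed in the ovarian portion, where the mouse gonads had 0.0797% and 0.0778%. Closed meant states 4 and 5 in both species. In the mole this takes in the most extensive state, while in the mouse state 4 covered 5.23% of autosomal bins in the ovary and 5.05% in the testis. The shares of closed segments therefore rest on unlike thresholds and cannot be compared in size. Because the states, the age and the species differ, these values are set side by side and no difference was tested.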

How the data were processed

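Per the file headers, the authors made the mouse segmentations with EpiCSeg, and each deposited file assigns segments to 1 of 5 numbered chromatin states, drawn in fixed colours. The state is a category, with no count, signal or score behind it in the files. STAR 2.6.1d and the build mm9 appear, without a role, in the submitters' processing notes. Read depth, peak thresholds and the number of mouse libraries are not given in the sources used here, so no test was possible. The sample labels give 3 mole tissues, which entered only the last paragraph.

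Segments were laid on 200 bp bins with Python 3.11.15 and numpy 2.4.6, and the overlap code was tested on simulated data. State 1 was taken as open, and states 4 and 5 as closed. A segment counted as shared with at least 1 bp of overlap. Windows of 1 Mb filled to at least 80% were kept. Wilson 95% intervals cover counting error only, since neighbouring bins are not independent. Alternatives changed the open and closed states, the segment length, the overlap, the chromosomes and the window margin. Named regions, chromosome 18 left out, were the 5 longest segments open in one gonad and closed in the other (ties by the length of the closed stretch), the 3 longest open in both and the 3 windows with the largest difference, in each direction. The gene part of the rule was not run. The comparison and these rules were chosen with earlier results of the series known. Chosen after seeing the data were the length classes, one-to-one pairs, profiles, spacing, domains, dense windows, groups of windows, pieces along the chromosomes, and the naming of windows by state 1 and by states 1 and 2.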

Additional observations from a re-analysis of the deposited data

How the results depend on the processing

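Of 42 values recomputed under an alternative, 7 stayed within the limits set, 34 moved and 1 reversed. The reversed one was the number of open segments, testis over ovary, which was 0.95 with all segments and 1.35 without single-bin segments. This setting was added after seeing the data. With it the ratio of mean lengths was 1.08 and the testis had more open segments on 19 autosomes in place of 2. Under this same setting the order of the gonads also turned in values labelled moved. These were the count of autosomes, the shares of segments with a partner and the numbers of segments closed in the other gonad. The open share was higher in the testis under each alternative run. With states 1 and 2 open it was 14.9% in the ovary and 17.4% in the testis, with X added 0.379% and 0.489%, without bins in state 5 in both gonads 0.418% and 0.544%, and without single-bin segments 0.339% and 0.495%. Without the dense windows, an alternative added after seeing the data, it was 0.326% and 0.447%. The Jaccard index was 0.393 with states 1 and 2 open, 0.518 without single-bin segments, 0.5004 with segments widened by 200 bp, 0.491 with X, 0.491 to 0.497 with an autosome left out, and 0.479 without the dense windows. The share of open segments with a partner was 63.8% for the ovary and 59.5% for the testis with at least 50% of the segment covered, 88.8% and 72.2% without single-bin segments, and 58.2% and 55.6% with states 1 and 2 open. The order of the gonads in this share thus depended on the setting. Segments open in one gonad and closed in the other numbered 0 for the ovary and 5 for the testis without single-bin segments, 0 and 0 with state 5 alone closed, and 42 and 33 with states 1 and 2 open. Bins in the same state made up 79.8% without bins in state 5 in both gonads and 77.8% with X. Windows higher in the testis by states 1 and 2 numbered 2 at 20 points and 127 at 10 points. The cause of these shifts was not tested beyond what each setting removes or adds. Depth is unknown, and segments of 200 bp are at the limit of the bins. No paired analysis was possible because each mouse gonad is 1 pooled segmentation without replicate numbers.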
